A study of Mus musculus with 6 samples.

Results

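The proximal segment of mouse chromosome 10 is the stretch of that chromosome whose genes were, for the most part, lower in METTL7A1 than in mock 4T1 cells. Its members were the genes of the deposited count table with a midpoint below 50 Mb of chromosome 10 (mm10) and at least 1 cpm (1 count in 1e6 counts of the library) in at least 3 libraries. Tnfaip3, Ctgf and Rps12 were left out. The rule gave 146 members of 438 listed genes in the stretch, among 13166 tested genes of 48587 listed. The stretch was chosen because its genes were lower in this same comparison, so the values below describe it, and no test of the members is given.

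Neighbouring genes on a chromosome share chromatin domains and replication timing, while each is transcribed from its own promoter. Proximal mouse chromosome 10 carries genes of many unrelated functions, among them the imprinted zinc finger gene Plagl1, the proto-oncogenes Myb and Fyn, the Hippo kinase Lats1, and the autophagy gene Atg5. It holds no single pathway, and its genes are described here by chromosomal order and by role.

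The 4T1 line is a mouse mammary carcinoma. METTL7A1 cells carry a stably transfected full-length Mettl7a1 cDNA in pBICEP-CMV-2, a vector with the viral CMV promoter, under G418 selection, and mock cells were stably transfected with the empty vector. Each group had 3 biological replicates, and whether a stable line was a clone or a pool is not given in the sources used here. Ribosomal RNA-depleted total RNA was sequenced, and the comparison asked which transcripts differ when METTL7A1 is overexpressed.

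The libraries held 18386780 to 28459338 counts in METTL7A1 and 20409195 to 25112433 in mock. Mettl7a1 had 6355, 11358 and 10398 counts in METTL7A1 against 30, 30 and 29 in mock, in accordance with the sample titles. The treatment label of the mock samples repeats the Mettl7a1 transfection text, whereas the study describes an empty vector. Of 8 mammary epithelial and carcinoma markers, 6 were at 1 cpm or more in every library, with sums of 1457 to 1727 cpm in METTL7A1 and 1446 to 1769 cpm in mock. Krt14, a basal keratin, was lower in METTL7A1, at 9.03, 10.5 and 9.79 cpm against 37.5, 39 and 36.7 cpm, and Krt5 was at 0 in every library. Of 5 immune markers, 1 (Cd68) was above 1 cpm, with sums for the list of 11.6 to 14.1 cpm in METTL7A1 against 4.91 to 6.30 cpm in mock. Cd3e was at 0 in every library. Of 5 fibroblast markers 1 (Pdgfra) was above 1 cpm, with sums of 23.9 to 26.7 against 17.4 to 19.8 cpm, and the 3 endothelial markers summed to under 1 cpm in every library. The part of these cells in the segment was not tested.

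Across the 146 members the median log2 fold change (METTL7A1 over mock) was -0.47, a fold of 0.721, with quartiles at -0.70 and -0.25. All 13166 tested genes had a median of -0.03. Of the members, 125 (85.6%) lay below 0, and 83 (56.8% of the members) lay within the band from -0.75 to -0.25. Among all tested genes 52.9% lay below 0. In the edgeR fit of all genes, 101 members had an adjusted p under 0.05 and were lower, where 21% of all tested genes were called lower. In the same fit 9 members were called higher, where 21.1% of all tested genes were called higher, and 36 were not called, while 42.1% of all tested genes were called in either direction. Since the segment was defined by this contrast, nothing is read from these counts. In bulk RNA, fewer cells that express a gene and less of its RNA per cell cannot be told apart.

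The shift was nearly the same in each METTL7A1 library. Relative to the mock mean, the median member stood at -0.45, -0.47 and -0.46 (log2 cpm) in METTL7A1 replicates 1, 2 and 3. The mock replicates stood at -0.03, 0.02 and 0.00, so the groups did not overlap. The number of members below the mock mean was 123, 124 and 122 in the METTL7A1 libraries and 92, 57 and 73 in the mock libraries. For single genes, the METTL7A1 libraries all lay below the mock libraries in 103 members and all above them in 13, against 25.6% and 25.9% of all tested genes, and the groups overlapped in the remaining 30. Members took up 0.776, 0.803 and 0.782% of the counts in METTL7A1 and 0.952, 1.06 and 1.14% in mock. Without the small nucleolar RNA Rnu3a, which alone held more counts than any other member, these shares were 0.715 to 0.745% and 0.838 to 1.03%.

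**Figure D1:**
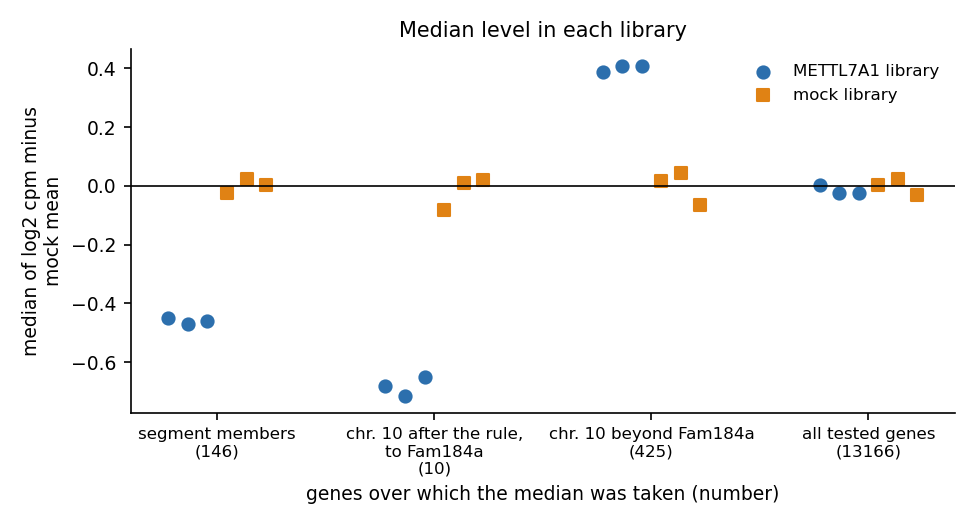
Median over genes of log2 cpm minus the mock mean (vertical axis) in each of the 6 libraries, for 4 sets of genes (horizontal axis, number of genes in brackets). Each point is 1 library. The 3 METTL7A1 libraries lie between -0.47 and -0.45 for the segment members. For the rest of chromosome 10 they lie between -0.72 and -0.65 up to Fam184a and near 0.40 beyond it.

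In chromosomal order the members ran from H60c at 3.26 Mb to Hace1 at 45.65 Mb. In consecutive windows of 5 Mb the median log2 fold change was -0.50 over the first 11 members, then -0.36, -0.31 and -0.34 between 5 and 20 Mb. It was -0.51 for the 22 members from 20 to 25 Mb and -0.26 for the 8 from 25 to 30 Mb. From 30 to 45 Mb it was -0.51, -0.55 and -0.52. Every window was below 0, and the middle of the segment was less uniform than its ends: the longest unbroken runs of members below 0 were the first 16, from H60c to Cnksr3, and the last 15, from Foxo3 to Hace1.

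The rule's limit of 50 Mb fell in a gap without tested genes, 5.08 Mb wide. Just inside it lay Rtn4ip1 (a mitochondrial oxidoreductase, log2 fold change -0.49), Aim1 (-0.32), the autophagy gene Atg5 (-0.78), Prep (a prolyl endopeptidase, -0.67) and the ubiquitin ligase Hace1 (-0.47). Just outside lay the helicase gene Ascc3 (-0.72), the leukocyte receptor gene Lilr4b (-0.97), Dcbld1 (-0.09), Gopc (-0.65) and Nus1 (-0.43). The values on both sides of the limit overlapped. All 10 tested genes from 50 Mb up to and including Fam184a lay below 0, with a median of -0.68. For the filter, a gene just outside was Gm3699, with 17, 35 and 29 counts in METTL7A1 against 17, 18 and 16 in mock, and a member just inside was H60c, at 0.970, 1.12 and 1.30 cpm against 1.48, 1.82 and 1.65 cpm.

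A single step fitted by least squares along the chromosome, over 504 genes with an average log2 cpm over 2, put the change at 53.84 Mb, between Fam184a and Man1a. Their midpoints are 0.298 Mb apart. Fam184a stood at 0.0539, 0.203 and 0.162 cpm in METTL7A1 against 33.5, 35.2 and 40.5 cpm in mock. Man1a, a Golgi mannosidase, stood at 93.2, 102 and 104 cpm in METTL7A1 against 82.4, 87.2 and 80.3 cpm in mock (0.26, SE 0.07). Fam184a was under 1 cpm in every METTL7A1 library and met the abundance filter only through the mock libraries. The same border was found with each METTL7A1 library set against the mean of the mock libraries. These fits share that mock mean and repeat the contrast that chose the segment, so their likeness is no separate result. Beyond Fam184a the 425 tested genes of chromosome 10 had a median of 0.42, and 290 of them (68.2%) were called higher and 14 lower.

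**Figure D2:**
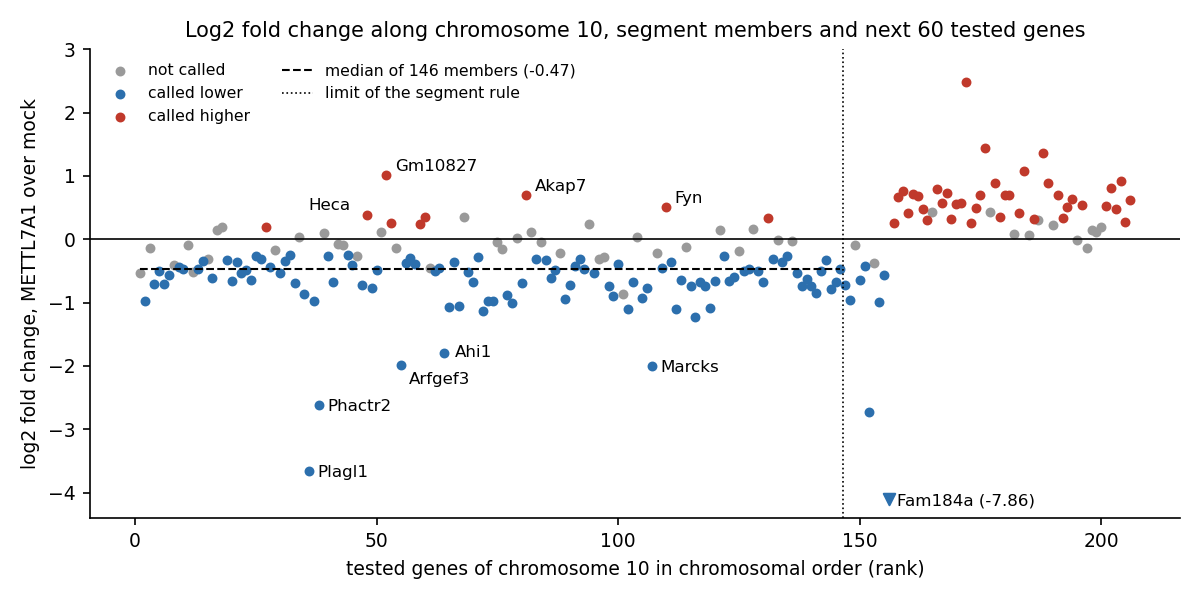
Log2 fold change (METTL7A1 over mock, vertical axis) of the 146 members and the next 60 tested genes of chromosome 10 in chromosomal order (horizontal axis, rank). Points are genes, coloured by their call in the fit of all genes, the dashed line is the member median of -0.47, and Fam184a (-7.86) is drawn at the lower edge. The points lie mostly below 0 up to Fam184a and above 0 beyond it.

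A like stretch on another chromosome, chosen with its lower values in this same comparison known, was used for comparison. On chromosome 13 between 50 and 90 Mb, 179 tested genes had a median log2 fold change of -0.49, with quartiles at -0.70 and -0.26, which differ from the chromosome 10 quartiles by no more than 0.02. There 93.3% of genes lay below 0 and 2 (1.12%) were called higher, compared with 85.6% and 9 (6.16%) on proximal chromosome 10. The difference in these shares was not tested. Because of how the chromosome 13 stretch was chosen, its likeness to the chromosome 10 segment is no separate result.

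The members that escaped the shift upwards were 9 genes called higher, from Sash1 at 8.80 Mb to Gm9855 at 42.05 Mb. They were interleaved with lowered genes. For 4 of the 9 both adjacent members lay below 0, for 4 a single one did, and for Gm10827 neither did. The median of the 10 nearest members lay between -0.69 and -0.26 for all 9.

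Akap7, a kinase-anchoring protein that tethers protein kinase A to membranes, was at 27.1, 29.3 and 29.9 cpm in METTL7A1 and 16.8, 18.1 and 18.5 cpm in mock. All METTL7A1 libraries lay above all mock libraries, and its log2 fold change was 0.69 (SE 0.08). Its neighbour on the centromere side, the Mediator subunit Med23, was at 88.4, 81.0 and 83.4 cpm against 135, 135 and 138 cpm (-0.69, SE 0.07). The neighbour on the other side, Epb41l2, a membrane skeleton protein, was not called (0.12, SE 0.09).

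Fyn, a Src-family tyrosine kinase, was at 22.8, 27.5 and 26.4 cpm in METTL7A1 and 18.8, 18.7 and 16.9 cpm in mock (0.50, SE 0.10). It lay between the epsilon-tubulin gene Tube1 (-0.46, SE 0.11) and Traf3ip2, the adaptor of the interleukin 17 receptor (-0.36, SE 0.08). The 10 members nearest to Fyn had a median of -0.69, the lowest among the 9.

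Of the other 7, 5 lay in a short stretch. It held the 13 members from Heca to Map7, within 2.29 Mb, of which 6 were called lower. The median log2 fold change of the 13 was -0.13. Over all tested genes, 21.1% were called higher and 21% lower. This stretch was picked out after the values were seen. Heca, the homologue of the fly gene headcase, stood at 43.5, 48.3 and 42.4 cpm in METTL7A1 and 34.4, 34.5 and 33.7 cpm in mock (0.39, SE 0.08). The tested gene before Heca, Cited2, a transcriptional coregulator of CBP and p300, stood at 62.3, 70.8 and 76.8 cpm against 113, 125 and 107 cpm (-0.72, SE 0.09). The tested gene after Heca, Abracl, a small actin regulator, stood at 27.9, 32.4 and 36.2 cpm against 52.5, 61.6 and 51.5 cpm (-0.78, SE 0.10). The METTL7A1 libraries thus lay wholly above mock for Heca and wholly below mock for the tested genes on either side. Genes under the filter, such as Gm20655, Txlnb and Gm17711, lie between these.

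The promoters of Heca, Cited2 and Abracl and of the pair Tube1 and Fyn are shown because in both places a higher member adjoins lower members. The lines give the 100 bases before the RefSeq start in GRCm38.p6, 5′ to 3′ on the gene's own strand, and capitals mark every match to GGGCGG or CCAAT on either strand. Cited2 is chr10:17723128-17723227 on the plus strand, Heca chr10:17948068-17948167 on the minus strand, Abracl chr10:18023253-18023352 on the minus strand, Tube1 chr10:39133923-39134022 on the plus strand and Fyn chr10:39369699-39369798 on the plus strand.
Cited2: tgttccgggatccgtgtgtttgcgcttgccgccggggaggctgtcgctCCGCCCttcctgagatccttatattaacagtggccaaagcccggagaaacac
Heca: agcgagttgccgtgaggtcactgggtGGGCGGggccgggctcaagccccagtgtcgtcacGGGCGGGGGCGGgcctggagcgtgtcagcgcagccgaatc
Abracl: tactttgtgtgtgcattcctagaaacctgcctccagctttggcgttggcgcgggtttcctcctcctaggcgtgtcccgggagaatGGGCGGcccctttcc
Tube1: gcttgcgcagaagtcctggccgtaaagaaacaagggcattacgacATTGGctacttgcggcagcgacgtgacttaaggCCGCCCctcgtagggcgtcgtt
Fyn: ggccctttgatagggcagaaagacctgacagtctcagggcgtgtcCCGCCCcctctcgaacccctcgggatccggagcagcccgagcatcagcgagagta

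The 5 windows were picked after the values were seen, and a link between their letters and the values was not tested. GGGCGG, the core of the GC box, was found in all 5 windows, 3 times in Heca and once in each of the others. It occurs in 24.7% of the 32851 RefSeq promoter windows cut to the same length. CCAAT was found in Tube1 alone, against 18.9% of all windows. The TATA box TATAAA and the E-box CACGTG had no match in these 5 windows. No match was found either for the cyclic AMP response element TGACGTCA, the AP-1 element TGANTCA and the amino acid response element TGATGCAA. Promoter windows were given for 112 of the 146 members (76.7%), which is too few for a comparison of promoter content over the members, and none was made.

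Within the stretch from Heca to Map7, the long non-coding RNA Gm10827 was the highest of all members on the log2 scale (1.01, SE 0.18). It was of low abundance, at 3.99, 3.93 and 3.61 cpm against 1.75, 1.90 and 2.05 cpm in mock. Nhsl1, a regulator of the actin cytoskeleton and the most abundant of the 9, stood at 93.2, 97.6 and 102 cpm against 72.7, 85.8 and 87.3 cpm (0.25, SE 0.08). Adjacent to it the groups overlapped for Hebp2, a haem-binding protein (-0.13, SE 0.14).

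Map3k5, the stress kinase ASK1, was at 60.7, 61.5 and 60.5 cpm in METTL7A1 and 48.2, 48.8 and 57.4 cpm in mock (0.24, SE 0.08). Map7, a microtubule-associated protein, was at 32.2, 33.2 and 31.8 cpm against 25.6, 26.5 and 24.3 cpm (0.35, SE 0.07). The next abundant gene along the chromosome, Bclaf1, a nuclear factor in transcription and splicing, was at 405, 380 and 350 cpm against 529, 536 and 547 cpm (-0.51, SE 0.08). Map7 and Bclaf1 were thus separated between the groups in opposite directions.

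Sash1, a scaffold protein of the SLY family, and Gm9855, a processed pseudogene, were the remaining genes. Sash1 stood at 62.1, 67.7 and 63.5 cpm against 53.2, 58.1 and 57.7 cpm (0.19, SE 0.07). Gm9855 stood at 12.6, 13.6 and 13.5 cpm against 11.7, 10.9 and 9.10 cpm (0.33, SE 0.12), and as a processed pseudogene it may take reads from its parent gene, so its value is uncertain. The groups were close in both. The calls of Sash1, Gm9855, Nhsl1 and Map3k5 were each lost in at least 1 fit that left out a library. Without METTL7A1 replicate 2 or without METTL7A1 replicate 3, 5 members were called higher, and these were Gm10827, Akap7, Fyn, Heca and Map7.

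**Figure D3:**
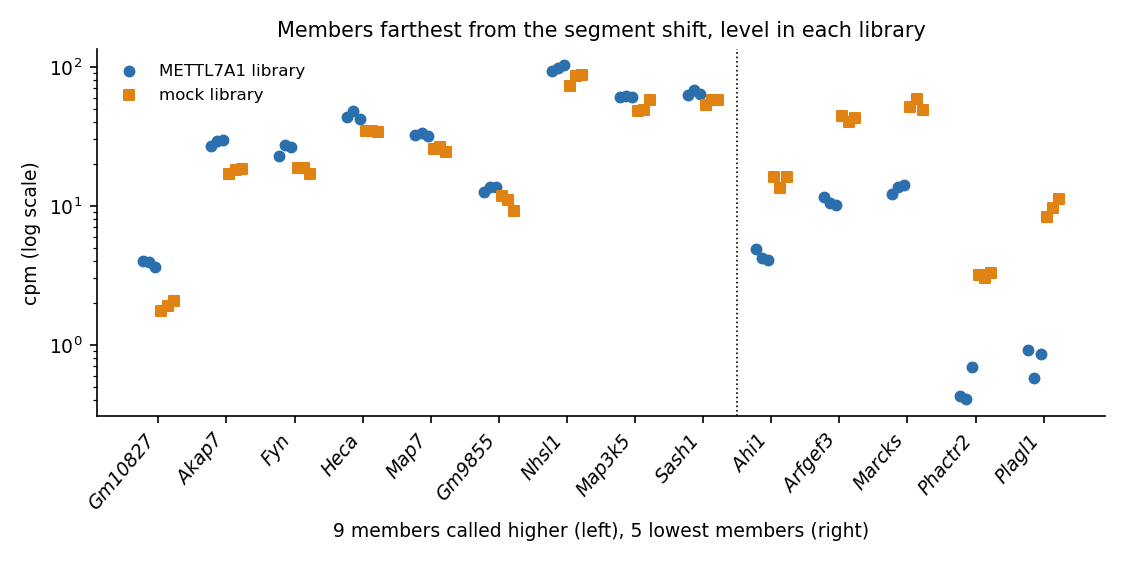
Level in cpm (vertical axis, log scale) in each library for the 9 members called higher and the 5 members farthest below the segment median (horizontal axis, genes). Each point is 1 library, and no error is drawn. The METTL7A1 points lie above the mock points in all genes left of the dotted line and below them in all genes right of it.

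Another 11 members stood level, with a log2 fold change within 0.1 of 0 and no call, a class that took in 21.5% of all tested genes. They were Esr1 (the oestrogen receptor), Stx11, Fuca2, Aig1, Hivep2, Slc18b1, Enpp1, Arhgap18, Frk, Lace1 and Sec63. Sec63, a subunit of the translocation channel of the endoplasmic reticulum, was at 132, 129 and 143 cpm in METTL7A1 and 120, 140 and 154 cpm in mock. Frk, a Src-related kinase, was at 86.8, 90.5 and 99.6 cpm against 87.2, 93.6 and 89.2 cpm. Hivep2, a zinc finger transcription factor, was at 95.5, 93.4 and 95.1 cpm against 98.5, 96.1 and 108 cpm. The groups overlapped for Sec63 and Frk, while the Hivep2 values in METTL7A1 lay just below those in mock.

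Esr1 (-0.10, SE 0.10) was at 16.2, 15.8 and 18.1 cpm against 16.5, 18.4 and 18.7 cpm. Fuca2, a fucosidase, stood at 48.3, 59.1 and 60.8 cpm against 48.5, 57.6 and 51.3 cpm (0.10, SE 0.10). Aig1 (-0.08, SE 0.11) and Arhgap18 (-0.05, SE 0.09) likewise overlapped between groups. With 1 library left out some of these genes moved out of the band. Fuca2 stood at 0.20 without METTL7A1 replicate 1 and 0.17 without mock replicate 2, and Aig1 at -0.21 without METTL7A1 replicate 3. Hivep2, Sec63 and Arhgap18 went no lower than -0.12, -0.10 and -0.10, and Frk stayed within the band.

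A further 25 members were not called and lay outside that band, from -0.86 (Gm26564) to 0.35 (E030030I06Rik). They were of low abundance, with a median of 8.92 cpm in mock against 36.6 cpm over all members, and 16 of them were protein coding. Their median log2 fold change was -0.17. Of these 25, 17 lay below 0. Over all members 21 lay above 0, of which 9 were called higher.

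The members that went farthest below the shift were Plagl1, Phactr2, Marcks, Arfgef3 and Ahi1, each more than 1 under the segment median. Of the 146 members, these 5 alone passed the thresholds of the study as lower, where 0.866% of all tested genes did. Those thresholds were an adjusted p under 0.01 and an absolute log2 fold change over 1.5. The 5 were picked for values near or past that cut, so nothing is read from their passing. Plagl1 and Phactr2 were under 1 cpm in every METTL7A1 library. Both met the abundance filter only through the mock libraries, where they were higher. No member passed the thresholds of the study as higher, against 1.61% of all tested genes.

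Plagl1, an imprinted zinc finger transcription factor, was at 0.916, 0.576 and 0.852 cpm in METTL7A1 and 8.36, 9.57 and 11.1 cpm in mock (-3.66, SE 0.21). The members beside it were lower by less. They were Sf3b5, a splicing factor subunit (-0.87, SE 0.14), and Ltv1, a ribosome biogenesis factor (-0.98, SE 0.08). Phactr2, a phosphatase and actin regulator, followed after Ltv1 and was at 0.431, 0.406 and 0.689 cpm against 3.17, 3.01 and 3.30 cpm (-2.62, SE 0.25). The next member was Fuca2, which stood level.

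Marcks, an actin-binding substrate of protein kinase C, was at 12.1, 13.7 and 14.1 cpm in METTL7A1 and 51.3, 59.0 and 49.0 cpm in mock (-1.99, SE 0.10). Before it lay the histone deacetylase Hdac2, at 137, 141 and 148 cpm against 239, 263 and 227 cpm (-0.77, SE 0.08). Relative to the segment median, Marcks stood at -1.52 and Hdac2 at -0.30 (log2).

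Arfgef3, of the family of exchange factors for ARF GTPases, was at 11.5, 10.5 and 10.1 cpm against 44.1, 40.1 and 42.5 cpm (-1.99, SE 0.09). It lay inside the stretch from Heca to Map7, so the same 2.29 Mb held both the highest member and 1 of the lowest 5. Ahi1, a ciliary transition zone protein, was at 4.90, 4.20 and 4.06 cpm against 16.0, 13.5 and 16.1 cpm (-1.80, SE 0.13). Next to it, the proto-oncogene Myb was at 3.72, 4.91 and 4.74 cpm against 9.68, 9.61 and 8.94 cpm (-1.06, SE 0.14).

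The most abundant members per exon length were 4 small nucleolar RNAs, which guide or assist ribosomal RNA processing and modification. Rnu3a, a copy of the U3 RNA, was at 601, 556 and 445 cpm in METTL7A1 and 1272, 1109 and 1007 cpm in mock (-1.08, SE 0.13), or 3885 cpm per kb of exon on average. Near-identical copies of U3 on another chromosome reached at most 87 counts in a library, so the assignment of reads among copies is uncertain. Snora33 (-1.14, SE 0.13), Snord100 (-0.98, SE 0.13) and Gm23130 (-0.97, SE 0.13) lie in introns of Rps12 on the same strand. All 4 were lower than the segment median, with no overlap between groups. Within METTL7A1 each of the 4 was highest in replicate 1 and lowest in replicate 3.

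The most abundant coding members per length were Cd164, Cd24a, Perp and Bclaf1, at 126, 117, 98.0 and 83.9 cpm per kb. Cd164, a sialomucin of endosomes and the cell surface, was at 261, 314 and 351 cpm in METTL7A1 and 396, 475 and 416 cpm in mock (-0.47, SE 0.11). Cd24a, a glycan-rich surface protein, was at 147, 155 and 175 cpm against 247, 304 and 247 cpm (-0.74, SE 0.10). Perp, a desmosomal membrane protein, was at 129, 172 and 184 cpm against 205, 232 and 196 cpm (-0.38, SE 0.12). All 3 were lower in every METTL7A1 library than in any mock library.

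By role, the members of 8 gene groups were compared with the segment as a whole. These groups were drawn up with earlier results of these data known. For scale, 69.2% of members and 21% of all tested genes were called lower.

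**Figure D4:**
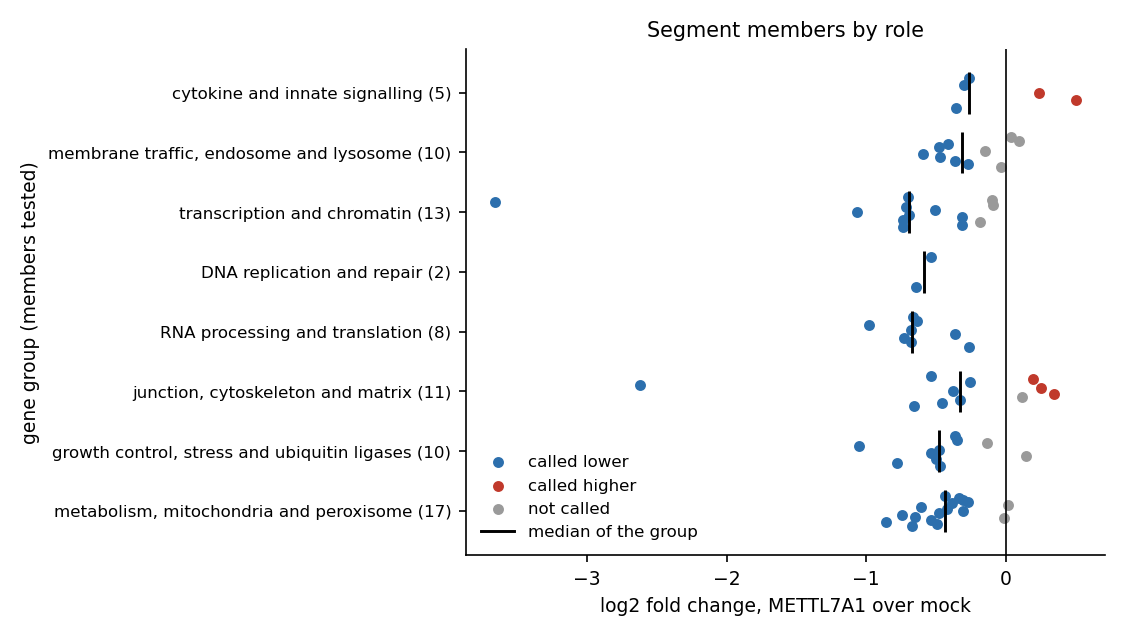
Log2 fold change (METTL7A1 over mock, horizontal axis) of the members of 8 gene groups (vertical axis, number of members tested in brackets). Points are genes coloured by their call in the fit of all genes, and the vertical bars are the group medians, which lie between -0.69 and -0.26.

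The 8 tested genes of RNA processing and translation were all called lower, with a median of -0.67 and a range from -0.98 to -0.26. Rpf2, a factor for the large ribosomal subunit, was at 41.3, 42.5 and 45.4 cpm in METTL7A1 and 66.2, 74.8 and 66.3 cpm in mock (-0.68, SE 0.08). Ltv1, a factor for the small subunit, was at 40.6, 39.1 and 40.5 cpm against 80.5, 84.4 and 72.3 cpm. Trmt11, part of a tRNA methyltransferase (-0.73, SE 0.09), and Ppil4, a cyclophilin with an RNA-binding domain (-0.64, SE 0.07), had like values. The other 4 were Hbs1l, Cdc40, Adat2 and Nup43, and the ninth gene of the list, Lin28b, was under the filter.

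Of 13 tested genes of transcription and chromatin, 10 were called lower, none higher, and 3 (Hivep2, Esr1 and Zbtb24) were not called. Their median was -0.69. Bend3, a heterochromatin-associated repressor, was at 29.9, 32.4 and 31.8 cpm against 52.1, 55.2 and 49.3 cpm (-0.73, SE 0.07). Gtf3c6, a subunit of the RNA polymerase III factor TFIIIC, was at 17.5, 19.5 and 19.7 cpm against 31.7, 32.6 and 30.3 cpm (-0.73, SE 0.08). Med23 and Plagl1, given above, belong to this group, and Plagl1 alone in it was past the thresholds of the study.

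Of 17 tested genes of metabolism, mitochondria and peroxisomes, 15 were called lower and none higher, with a median of -0.44. The lowest was Qrsl1, a subunit of the mitochondrial glutamyl-tRNA amidotransferase, at 21, 16.6 and 16.7 cpm against 33.5, 32.4 and 32.0 cpm (-0.86, SE 0.10). Amd1, which makes the aminopropyl donor of polyamine synthesis, was at 74.6, 74.6 and 78.5 cpm against 116, 129 and 113 cpm (-0.65, SE 0.07). Echdc1, a metabolite-repair decarboxylase (-0.61, SE 0.08), shares bases on the opposite strand with Rnf146, and its value is uncertain because the strand setting of the counting is not stated. Enpp1 and Lace1 were the members of the group that stood level.

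Of 10 tested genes of growth control, stress and ubiquitin ligases, 8 were called lower, none higher and 2 (Hebp2 and Cdk19) were not called. Their median was -0.48. Sgk1, a kinase induced by serum and glucocorticoids, was at 63.1, 58.3 and 60.4 cpm against 127, 134 and 114 cpm (-1.05, SE 0.08). Atg5, which is conjugated to Atg12 in autophagy, was at 21.2, 23.9 and 24.0 cpm against 38.4, 42.6 and 37.9 cpm (-0.78, SE 0.08). The ubiquitin ligases Rnf217 (-0.54, SE 0.08) and Hace1 (-0.47, SE 0.07) lay near the segment median.

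Of 11 tested genes of junctions, cytoskeleton and matrix, 7 were called lower and 3 (Map7, Nhsl1 and Sash1) higher. Epb41l2 was not called. The median was -0.33. Katna1, the catalytic subunit of the microtubule-severing katanin, was at 46.1, 41.6 and 40.8 cpm against 61.3, 63.6 and 60.5 cpm (-0.53, SE 0.07), in contrast to the microtubule gene Map7. Wasf1, a subunit of the WAVE complex of actin nucleation, was at 7.60, 7.75 and 8.80 cpm against 11.9, 12.9 and 13.3 cpm (-0.66, SE 0.11). Genes of the cytoskeleton on proximal chromosome 10 were thus found on both sides of 0.

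Of 10 tested genes of membrane traffic, endosomes and lysosomes, 6 were called lower and 4 (Stx7, Stx11, Fuca2 and Sec63) were not called. The median was -0.32. Fig4, a phosphoinositide phosphatase of endosomes, was at 24.3, 24.6 and 24.9 cpm against 39.8, 38.0 and 33.6 cpm (-0.59, SE 0.08). Reps1, an adaptor in endocytosis (-0.48, SE 0.07), and Vta1, a cofactor of the ESCRT machinery (-0.41, SE 0.08), were called lower as well. Serinc1 and Smpdl3a of this list lie outside the segment.

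The 5 tested genes of cytokine and innate signalling were split, with 3 lower and 2 (Fyn and Map3k5) higher, and a median of -0.26. Ifngr1, the ligand-binding chain of the interferon gamma receptor, was at 36.8, 42.2 and 44.5 cpm against 50.7, 54.1 and 47.4 cpm (-0.30, SE 0.09). Traf3ip2 was at 37.2, 37.4 and 36.7 cpm against 50.3, 43.5 and 49.0 cpm, and Tab2, an adaptor of the kinase TAK1, at 84.1, 79.7 and 92.7 cpm against 97.2, 108 and 102 cpm (-0.26, SE 0.08). Ligands of the receptor NKG2D also lie here: H60b was at -0.51 (SE 0.07) and Ulbp1 at 0.14 (SE 0.07), and Ulbp1 was not called. H60c, given above, is another, and Raet1e and Raet1d were under the filter. H60b lies within Raet1e and shares 133 exon bases with it on the same strand, so its value is uncertain.

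Both tested genes of DNA replication and repair were called lower. Rev3l, the catalytic subunit of DNA polymerase zeta, was at 149, 127 and 125 cpm in METTL7A1 and 205, 200 and 221 cpm in mock (-0.64, SE 0.08). Shprh, a helicase with ubiquitin ligase activity, was at 171, 151 and 145 cpm against 219, 219 and 237 cpm (-0.53, SE 0.08). Mcm9 and Ascc3 of the same list lie beyond 50 Mb but before Fam184a, and stood at -0.99 (SE 0.09) and -0.72 (SE 0.07).

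The remaining low members by the naming rule were Tspyl4, a nucleosome assembly protein family member (-1.10, SE 0.15), and the antisense RNA E130307A14Rik (-1.10, SE 0.26). Tspyl4 was at 3.13, 3.45 and 3.73 cpm against 7.71, 7.96 and 6.52 cpm. E130307A14Rik was at 2.53, 2.37 and 2.92 cpm against 5.19, 3.63 and 7.93 cpm and varied most among the mock libraries. Tspyl4 is uncertain because it shares bases with Gm26564 on the opposite strand, which had at most 57 counts in a library.

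The classes differed in gene size. The genomic span had a median of 133 kb for the 9 members called higher, 128 kb for the 11 level members and 128 kb for the 5 lowest, against 33.9 kb for the 96 other members called lower. It was smallest, 14.3 kb, for the 25 uncalled members outside the band around 0. The smallest spans belonged to the small nucleolar RNAs, and the largest, 530 kb, to a gene called lower. Across the 146 members Spearman's rank correlation of the log2 fold change with span was 0.25, with exon length 0.11 and with the average log2 cpm 0.05. The points share the same 6 libraries, and these are descriptions only.

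By biotype, 123 members were protein coding, and 90 of these were called lower and 7 higher, with a median of -0.47, as over all members. The others were mainly long non-coding RNAs, pseudogenes and small nucleolar RNAs, and 3 symbols had no match in the annotation.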

How the data were processed

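RNA was sequenced from 3 METTL7A1 and 3 mock replicates. The authors deposited raw read counts per gene, whole numbers that were not normalised, with the exon coordinates and summed exon length of each gene in other columns of the deposited table. The submitters' processing notes name bcl2fastq 2.20.0.422, STAR 2.5.3a, featureCounts and R 3.5.1, with GRCm38 (mm10). The strand and multimapping settings of the counting are not given in the sources used here. Every count column was matched to a sample (0 were left out).

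Here, genes at 1 cpm or more in at least 3 libraries were kept (99.8% of counts in every library), and the contrast of METTL7A1 and mock was fitted in edgeR 4.0.16 in R 4.3.3 (TMM factors, quasi-likelihood test without covariates, Benjamini-Hochberg adjustment over 13166 genes). A gene was called at an adjusted p under 0.05. These p-values weigh the group difference against the spread between the 3 replicates of each group, and a total of 6 libraries limits their precision. Whether replicates came from separately derived stable lines is not stated in the sources used here. A difference between lines and an effect of METTL7A1 thus cannot be told apart. The same procedure was tested on simulated data with 200 changed genes. Fold changes are log2 values with their standard errors, and cpm values use TMM library sizes. Gene positions are midpoints of the smallest start and largest end in mm10.

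The members and the gene lists were chosen with earlier results of these data known, and the contrast that chose the members is the one described, so no test was made on them. Named were all members called higher with a mean of at least 50 counts, the 8 lowest with at least 50 counts, the 8 most abundant per exon length, the 5 tested genes on each side of 50 Mb, up to 6 level members with at least 500 counts, and at most 4 per gene group by adjusted p. Neighbours of these genes were named too. Other genes (Esr1, Myb, Hdac2, Phactr2 and genes listed by class) were named after their values were seen. Biotypes came from GENCODE M21, overlaps from the deposited exon coordinates and promoter windows from RefSeq (GRCm38.p6). Whether samples with the same replicate number were paired is not stated in the sources used here, and the main fit did not pair them. The deviations of same-numbered samples from their group means correlated at -0.15, 0.20 and -0.37. With so few replicates and mixed signs, these values cannot decide whether the samples were paired. Alternatives were RLE and upper quartile scaling, other filters, removal of the 20 most abundant genes, a replicate block, DESeq2 1.42.0, limma 3.58.1 (voom) and removal of each library.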

Additional observations from a re-analysis of the deposited data

How the results depend on the processing

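The segment median (log2 fold change -0.47) stayed negative under every alternative run. It moved by more than the replicate spread without an abundance filter (-0.42) and without the 20 most abundant genes (-0.43). It did so too without mock replicate 1 (-0.45) and without mock replicate 3 (-0.44). Without the filter the median was taken over 326 genes of the segment, not the 146 members. The median of all tested genes, -0.03 in the main fit, was -0.01, 0.01, -0.004 and -0.005 in these fits. Relative to that median the segment stood at -0.41, -0.45, -0.44 and -0.44. With each library left out the segment median lay between -0.48 and -0.44. The number of members called lower was 89 to 101 with each library left out, against 101, and the number called higher was 5 to 9, against 9. It was 5 without METTL7A1 replicate 2 and 5 without METTL7A1 replicate 3, where Sash1, Nhsl1, Map3k5 and Gm9855 were no longer called. Gm10827, Akap7, Fyn, Heca and Map7 were called higher under all alternatives of the fit. With a replicate block, 4810 genes were called over all genes against 5537, the segment median was -0.47, and 100 members were called lower and 7 higher, with Sash1 and Gm9855 lost. DESeq2 lost the same pair of calls. The border at 53.84 Mb was the same under its 3 alternatives. Of the 292 genes of the segment under the filter, 112 had 0 counts in all libraries, so that at this depth no difference could be detected for those 112.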

Other observations

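The 292 genes of the segment under the abundance filter are not part of the values above. They summed to 24.8 to 25.1 cpm in the METTL7A1 libraries and 35.8, 29.4 and 38.1 cpm in the mock libraries. Rspo3, a secreted activator of Wnt signalling, had 0, 0 and 0 counts in METTL7A1 and 13, 15 and 26 counts in mock. With 3 counts over the METTL7A1 group as the floor, it was at least 19.4-fold lower. Samd5 had 1, 2 and 2 counts against 13, 21 and 22. Sobp had 3, 5 and 3 counts against 11, 14 and 16. Lin28b, an RNA-binding repressor of let-7 maturation, had 0, 1 and 1 counts against 3, 8 and 13. Other genes went the opposite way. Vnn3 had 4, 7 and 8 counts against 0, 0 and 1, and Fam26d had 2, 13 and 6 against 1, 0 and 1. Gm10825 had 5, 6 and 6 counts against 4, 0 and 1. Prdm1, a transcriptional repressor, had 10, 14 and 14 counts against 11, 8 and 15, so that the groups overlapped. These genes were picked out after their counts were seen and were not tested.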
